A study of Mus musculus with 28 samples.

Results

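The early response of murine bone marrow-derived macrophages (BMDMs) to von Willebrand factor (VWF) was set directly against their response to bacterial lipopolysaccharide (LPS). All 5 cultures incubated with VWF for 3.5 h were compared with all 4 cultures incubated with LPS for 3.5 h, which are 9 of the 28 cultures of the series, and the 5 PBS-treated cultures of that time give the control level. The question was which early functions were stronger with either agonist. The members of the comparison are all genes, and 7500 of the 54532 genes in the deposited table reached 10 TPM, a measure of transcript abundance per exon length and library, in at least 1 of the 9 cultures and were tested.

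The macrophages were grown in M-CSF from the marrow of C57/B6JB mice of 8 to 12 weeks, seeded in wells, washed and given fresh medium with 1 mM CaCl2. VWF was the human plasma-derived protein, free of factor VIII, at 10 µg/ml, LPS was an ultrapure preparation at 100 ng/ml, and controls received PBS. A human protein was thus applied to mouse cells, and 1 dose of each agonist was used, so the comparison holds for these doses only. The labels call the cultures biological replicates but do not say that they came from separate animals, so p-values measure the spread between cultures. In bulk RNA, a change in the number of cells of a kind and a change in RNA per cell cannot be told apart.

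LPS is a component of the outer membrane of Gram-negative bacteria that is recognised by Toll-like receptor 4 (TLR4) together with CD14 and MD-2. TLR4 signals from the cell surface through the adaptor MyD88 to NF-κB and MAP kinases, and from endosomes through the adaptors TRAM and TRIF to IRF3, which switches on interferon-β. Secreted interferon-β then acts on the same and neighbouring cells through JAK and STAT proteins and induces interferon-stimulated genes. VWF is a large plasma glycoprotein of haemostasis that tethers platelets at sites of vessel injury and carries factor VIII, and macrophages bind it and take it up.

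Total counts of the 14 cultures at 3.5 h lay between 41131209 and 76943833. VWF replicate 5 was the deepest, and no other VWF-treated culture exceeded 53890327. The TMM factors, which correct for the makeup of a library, were 0.765 to 0.838 in LPS-treated, 0.95 to 1.13 in VWF-treated and 1.13 to 1.24 in control cultures. With scaling by library size alone, the median log2 difference between VWF and LPS over all tested genes moved from 0.02 to 0.30, and the part of this scaling in the results was not tested beyond the values given beside them. The macrophage marker list summed to 9970 to 15000 CPM (counts scaled to library size) in control, 12500 to 17000 in VWF-treated and 10000 to 16100 in LPS-treated cultures, with none of its 10 genes at 0. Mertk and Fcgr1 were the members of that list that were called, both lower with VWF. The 10 lymphocyte markers summed to 3.35 to 5.68 CPM over all 14 cultures, with Cd3g at 0 in every LPS-treated culture, and the 5 mast cell markers to 1.34 to 3.00 CPM. The 6 dendritic cell markers summed to 13.2 to 19.9 CPM with VWF, 22.3 to 27.5 with LPS and 1.45 to 1.79 in controls, mostly from Xcr1. The 9 neutrophil markers summed to 4.97 to 28.7 CPM with VWF, with Ly6g at 0, and to 11.8 to 32.4 with LPS. The 8 stromal markers summed to 64.9 to 406 CPM with VWF and 60.1 to 212 with LPS, and the 8 erythroid and platelet markers, mostly Pf4, to 552 to 1180 with VWF and 984 to 1300 with LPS. No lymphocyte or mast cell marker reached the TPM filter, and the 1 dendritic cell, 2 erythroid and platelet, 3 neutrophil and 2 stromal markers that did were not called. The part of other cells in the results was not tested.

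Values of single cultures are CPM in the order of their replicate numbers. Fold changes are given as log2 of VWF over LPS, so that a positive value is higher with VWF and 1 stands for a 2-fold difference. Of the 7500 genes, 856 (11.4%) were called, at an adjusted p under 0.05 and an absolute log2 fold change over 1 in the quasi-likelihood test of edgeR, adjusted after Benjamini-Hochberg. The genes called higher with VWF numbered 353 (4.71%) and those called lower 503 (6.71%). Scaling by library size alone turned this split to 751 higher and 340 lower. The VWF-treated and LPS-treated cultures did not overlap in 324 of the higher and 498 of the lower genes. This count rests on the same values as the calls and adds no support to them. Its share over all tested genes is not given here, and genes that were not called, such as Tnf, Ccl3 and Hif1a, also had no overlap. Differences in favour of LPS were also the larger ones, with a median of −1.53 against 1.31 and with 40 lower but 7 higher genes past an 8-fold difference. Among the 856 were 10 genes with means under 1 CPM in both groups and at most 126 exonic bases, none of which is named here. The counts of called members in the gene lists below are to be read beside the 4.71% of all tested genes called higher and the 6.71% called lower.

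**Figure D1:**
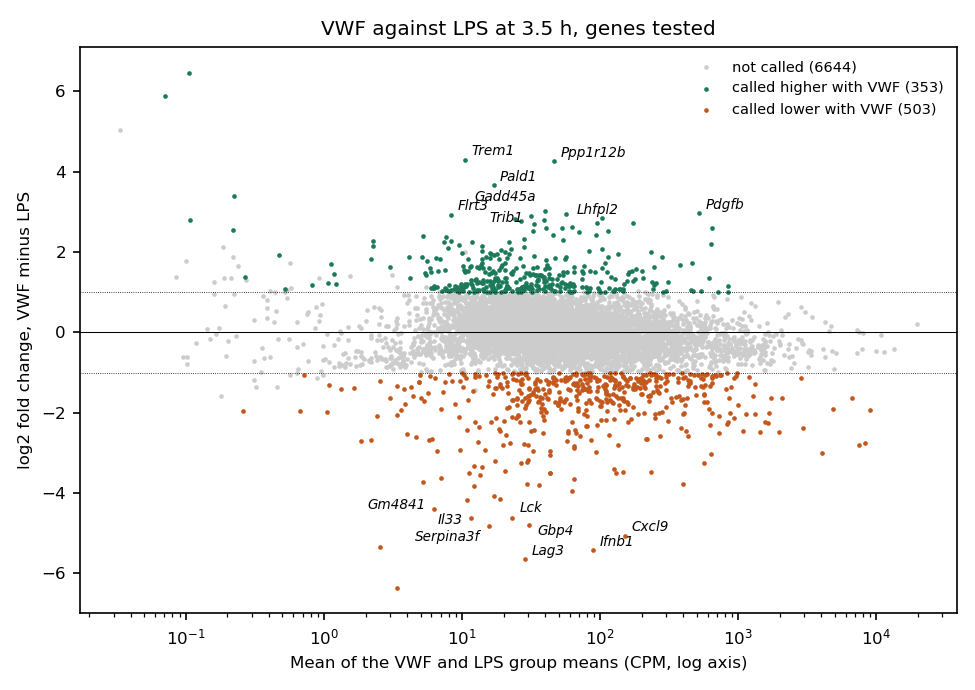
Log2 fold change of VWF minus LPS at 3.5 h against the mean of both group means in CPM (log axis) for the 7500 genes tested, with 353 called higher in green, 503 called lower in orange and dotted lines at a 2-fold difference. The leading lower genes, from Lag3 to Gm4841, lie farther from 0 than the leading higher genes, from Trem1 to Trib1.

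The gene of interferon-β itself stood near the head of the genes that were lower with VWF. Ifnb1 (ENSMUSG00000048806, chromosome 4, minus strand) reached 2.67, 4.78, 5.56, 4.44 and 2.41 CPM in the 5 VWF-treated cultures and 225, 194, 108 and 166 CPM in the 4 LPS-treated cultures. The highest VWF-treated culture was thus far below the lowest LPS-treated one and no control culture held over 7 counts. The log2 fold change was −5.42 (SE 0.30, adjusted p = 4.72e-07).

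Interferon-responsive promoters carry the interferon-stimulated response element (ISRE) or the gamma-activated site (GAS, TTCNNNGAA), which STAT complexes and IRFs bind, while NF-κB binds the kappaB motif. To show what these letters look like in genes of both directions, the 250 bases before the RefSeq start of 3 genes are printed 5′ to 3′ on the gene's strand (GRCm38.p6), with every match to a searched motif on either strand in capitals. Lag3 and the genes of guanylate-binding proteins that lead their list had no entry in the table used, so Ifnb1 and Irgm1, an interferon-inducible GTPase, stand for the lower genes and Trem1 for the higher ones. The windows are chr4:88522795-88523044 (minus strand), chr11:48871421-48871670 (minus strand) and chr17:48232489-48232738 (plus strand).
Ifnb1: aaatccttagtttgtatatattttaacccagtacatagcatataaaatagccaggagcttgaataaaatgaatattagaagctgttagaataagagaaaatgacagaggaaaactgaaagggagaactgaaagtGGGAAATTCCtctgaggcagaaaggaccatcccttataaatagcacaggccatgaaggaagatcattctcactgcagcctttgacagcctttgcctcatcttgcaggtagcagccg
Irgm1: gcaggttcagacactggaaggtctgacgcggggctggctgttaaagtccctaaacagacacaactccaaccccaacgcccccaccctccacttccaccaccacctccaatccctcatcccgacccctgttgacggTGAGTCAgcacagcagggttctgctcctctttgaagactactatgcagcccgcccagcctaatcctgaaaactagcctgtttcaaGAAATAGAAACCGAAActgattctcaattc
Trem1: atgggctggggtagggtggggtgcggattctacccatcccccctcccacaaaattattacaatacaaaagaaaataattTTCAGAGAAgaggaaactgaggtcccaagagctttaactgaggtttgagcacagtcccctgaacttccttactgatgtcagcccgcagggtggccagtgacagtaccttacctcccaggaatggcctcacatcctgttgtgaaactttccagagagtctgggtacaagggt
The capitals mark a kappaB match 116 to 107 bases before the start of Ifnb1. In Irgm1 they mark an AP-1 match (TGANTCA) 115 to 109 bases and 2 overlapping ISRE matches between 30 and 15 bases before the start. In Trem1 they mark a GAS match 171 to 163 bases before the start. Only exact matches to the searched letters are marked, and sites with other letters or another spacing were not searched. The lack of a marked ISRE in the Ifnb1 window thus does not show that IRFs have no site there.

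Across the genes with a promoter entry, an ISRE match lay between 250 bases before and 50 after the start in 17.4% of the 380 genes called lower with VWF and in 2.5% of the 280 called higher. It lay in 3.78% of 5815 tested genes and 3.44% of all 32851 promoters. A GAS match was found in 13.2% of the lower and 6.07% of the higher genes, against 6.66% of tested genes and 8.3% of all promoters. AP-1 letters occurred in 10.8%, 5.71%, 4.95% and 7.81% of these sets, in the same order. The kappaB motif was about as frequent in both directions, at 13.4% of lower and 10.7% of higher genes, beside 10.3% of tested genes and 8.46% of all promoters. The antioxidant response element (ARE, TGACNNNGC) was found in 14.7% and 16.4%, the cAMP response element (CRE, TGACGTNA) in 3.16% and 3.21% and the serum response element in 1.58% and 0.357% of lower and higher genes. Tested genes held these in 15.7%, 5.38% and 1.34%, and all promoters in 12.4%, 2.93% and 1.63%. These shares are descriptions without a test. In shares by list that were added after the values were seen, ISRE letters occurred in 7 of 7 promoters of guanylate-binding protein and immunity-related GTPase genes and in 17 of 29 of antiviral genes. They occurred in 5 of 15 promoters of MHC class I and antigen processing genes, 2 of 6 of CXC chemokines, 0 of 7 of CC chemokines and 0 of 15 each of the cholesterol and NRF2 lists.

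Interferon-stimulated antiviral genes were lower with VWF almost throughout. Of 39 tested members 37 were called lower and 0 higher, and the median log2 fold change was −1.71 against 0.02 over all tested genes. Cmpk2, a mitochondrial nucleotide kinase gene that neighbours the antiviral gene Rsad2, reached 513, 747, 826, 1287 and 966 CPM with VWF and 5664, 7823, 7515 and 7815 CPM with LPS. Ifit1, whose protein binds foreign RNA, reached 916, 1701, 2003, 2828 and 1694 CPM with VWF and 14450.3, 9882, 14382 and 13324 CPM with LPS. Neither gene overlapped between the groups, at log2 fold changes of −3.01 (SE 0.22) and −2.79 (SE 0.26). Isg20, an exonuclease, and Ifit1bl1 differed by −2.84 (SE 0.26) and −3.49 (SE 0.31). The 2 members that were not called were Parp14 at −0.80 (SE 0.19, adjusted p = 0.00531) and Ifi27l2a at −0.96 (SE 0.16, adjusted p = 0.000705), which falls just short of the fold threshold and was called under 5 of the alternatives.

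Ifit1 and Cmpk2 were nonetheless far above control with both agonists. The control cultures held 11.7, 9.59, 6.45, 11.6 and 4.6 CPM of Ifit1 and 11.5, 7.66, 5.5, 12.4 and 6.13 CPM of Cmpk2, below every treated culture. Against these shared controls, the log2 fold change of Ifit1 was 7.62 for VWF and 10.40 for LPS, and that of Cmpk2 was 6.57 and 9.57.

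The guanylate-binding proteins and immunity-related GTPases, which attack vacuoles that hold pathogens, were lower with VWF in all 11 tested members, with a median of −2.0. Gbp4 stood at 1.83, 1.57, 1.54, 3.21 and 2.13 CPM with VWF and 49, 57, 55.9 and 72.5 CPM with LPS. Iigp1 stood at 29.8, 45.6, 28.2, 59.1 and 26.1 CPM with VWF and 335, 436, 452 and 502 CPM with LPS, and Irgm1 at 219.8, 293, 360.1, 441 and 362 and 1284, 1559, 1659.5 and 1560.1 CPM. The groups were apart in each of these genes, with log2 fold changes of −4.79 (SE 0.22, adjusted p = 1.13e-07), −3.47 (SE 0.24, adjusted p = 1.72e-06) and −2.14 (SE 0.17, adjusted p = 3.1e-06). Gbp9 differed by −2.87 (SE 0.21).

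Among 22 tested ligands, receptors and signalling factors of the interferon system, 9 were called lower, 0 higher, and the median was −0.58. With scaling by library size alone, 1 member was called higher. Irf8, a transcription factor of the myeloid lineage, reached 79.5, 96.5, 102, 124 and 119 CPM with VWF and 762, 1013, 1077 and 1269 CPM with LPS, while control cultures held 112, 129, 162, 175 and 178 CPM. With VWF it was thus within or below the control range, at a log2 fold change to LPS of −3.26 (SE 0.16, adjusted p = 1.73e-07). Irf1 reached 354, 460.4, 535, 464 and 354 CPM with VWF and 1698, 1904, 1911 and 1786 CPM with LPS, a difference of −2.03 (SE 0.12). Socs1, a feedback inhibitor of JAK kinases, differed by −2.58 (SE 0.22). Its relative Socs3 had overlapping groups, at 1051 to 1287 CPM with VWF and 1157 to 2116 CPM with LPS and −0.54 (SE 0.15, adjusted p = 0.0144), and Jak2 was not called either, at −0.29 (SE 0.15, adjusted p = 0.115).

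In MHC class I and antigen processing, 9 of 19 tested members were lower and 0 higher with VWF, at a median of −0.94. The number of lower members was 4 with scaling by library size alone. Nlrc5, the transactivator of class I genes, ranged from 24.8 to 46.2 CPM with VWF and from 146 to 199.7 CPM with LPS (−2.18, SE 0.20). The peptide transporter gene Tap1 differed by −1.65 (SE 0.14) and the immunoproteasome gene Psmb9 by −1.52 (SE 0.18). H2-T22 differed by −1.62 (SE 0.15), and 29.4% of its exon length overlaps A930015D03Rik on the other strand. The most abundant members that were not called were B2m and H2-D1, with −0.62 (SE 0.11) for B2m and −0.41 (SE 0.12) for H2-D1.

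**Figure D2:**
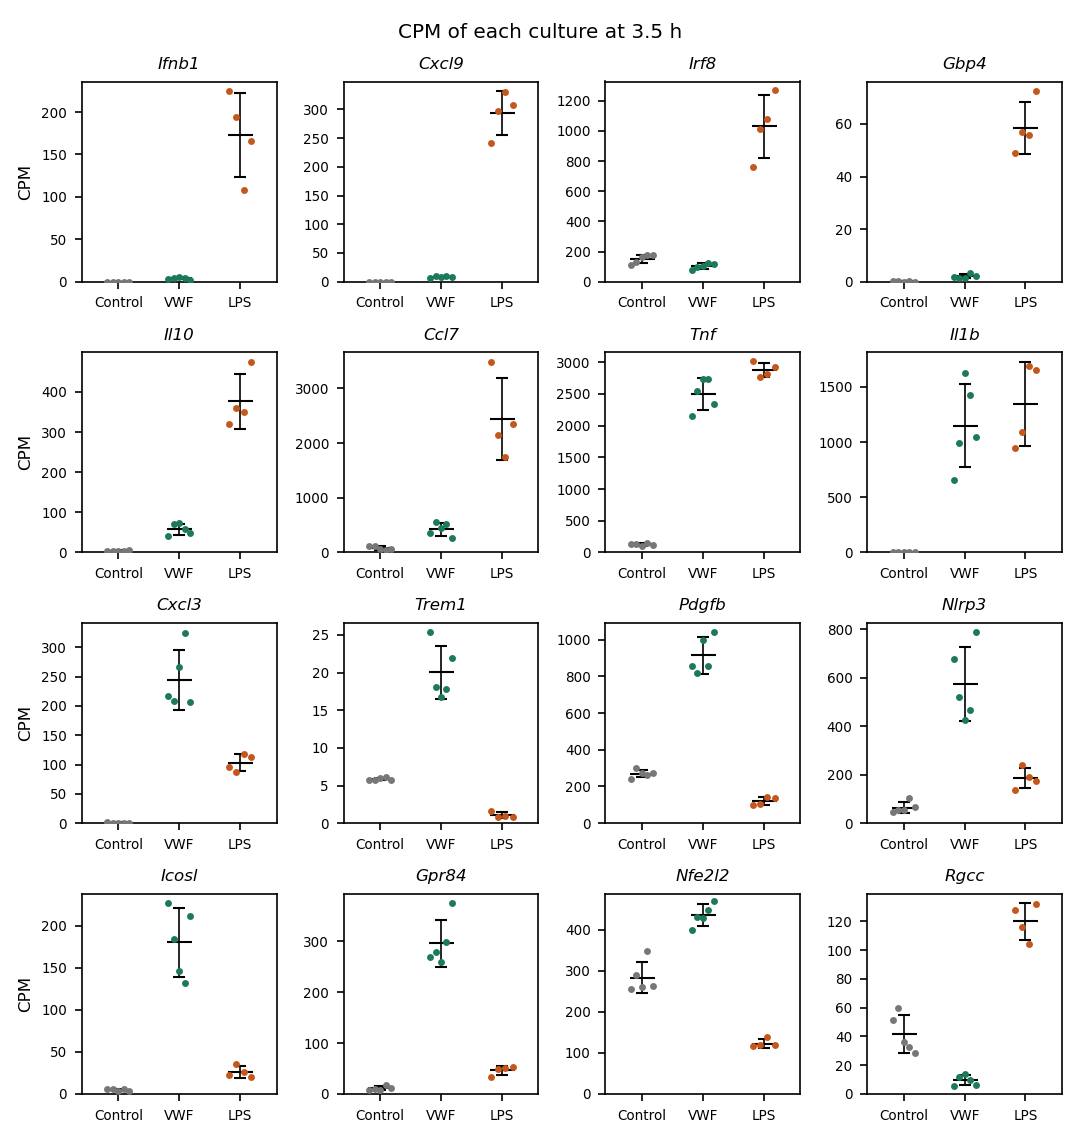
CPM of 16 genes in each culture at 3.5 h, with 5 control, 5 VWF-treated and 4 LPS-treated cultures as points and the mean ± SD as bars on linear axes that start at 0. Ifnb1, Cxcl9, Irf8, Gbp4, Il10, Ccl7 and Rgcc are lower with VWF than with LPS in every culture, Cxcl3, Trem1, Pdgfb, Nlrp3, Icosl, Gpr84 and Nfe2l2 are higher in every culture, and Tnf and Il1b lie close together.

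The other leading genes on the LPS side were of several kinds. Lag3, which encodes an inhibitory receptor for MHC class II, showed the largest difference of the genes named by size. Its cultures held 0.855, 1.05, 0.976, 1.69 and 0.917 CPM with VWF, 51.5, 56.1, 43 and 73.1 CPM with LPS and 1.04, 1.38, 0.553, 0.875 and 1.09 CPM in controls, so that VWF-treated cultures overlapped controls. The log2 fold change was −5.64 (SE 0.22, adjusted p = 8.41e-08). Lck, a Src family kinase best known from T cells, reached 1.4, 1.71, 2.25, 1.89 and 1.38 CPM with VWF and 31, 39.5, 48.4 and 57.2 CPM with LPS (−4.63, SE 0.20, adjusted p = 1.1e-07). Lag3 and Lck are also expressed by lymphocytes, whose marker list stayed at or below 5.68 CPM in sum in every culture. The part of lymphocytes in the values of Lag3 and Lck was not tested. Il33, an alarmin of the IL-1 family that was at 0 counts in every control culture, reached 0.496, 0.783, 1.27, 1.32 and 0.586 CPM with VWF and 15.2, 23.3, 23.4 and 27 CPM with LPS (−4.62, SE 0.29, adjusted p = 9.45e-07). The protease inhibitor gene Serpina3f and the predicted gene Gm4841 differed by −4.82 (SE 0.21) and −4.39 (SE 0.50), again with no overlap, but without LPS replicate 1 Gm4841 did not reach 10 TPM and was not tested.

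Of 19 tested inflammatory cytokine genes, 9 were called lower with VWF and 1 higher, and 1, Tnf, had a 95% interval within 0.5 of 0. The list median was −0.94. Tnf reached 2159, 2548, 2737, 2731 and 2339 CPM with VWF and 3011, 2763, 2820.5 and 2926 CPM with LPS. Its cultures did not overlap, yet the difference was small at −0.16 (SE 0.09, adjusted p = 0.165), with a 95% interval of −0.36 to 0.04, and its sign changed with scaling by library size alone. Il1b overlapped, at 661, 996, 1625, 1423 and 1046 CPM with VWF and 950.2, 1096, 1692 and 1655 CPM with LPS (−0.19, SE 0.24, adjusted p = 0.533, 95% interval −0.72 to 0.35), and its sign changed under the same scaling.

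Il6 was lower with VWF. It reached 45.1, 63.3, 77.6, 129 and 63.2 CPM with VWF and 538, 314, 471 and 545 CPM with LPS, which differed by −2.59 (SE 0.27, adjusted p = 2.31e-05) on the log2 scale. The anti-inflammatory cytokine gene Il10 reached 40.7, 70.8, 72.4, 58.2 and 47.2 CPM with VWF and 319.9, 359.7, 349.8 and 475 CPM with LPS (−2.66, SE 0.17, adjusted p = 1.07e-06). Il27, which shapes T cell responses, reached 89.2, 135, 149, 199 and 106 CPM with VWF and 1123, 962, 1054 and 1399.9 CPM with LPS (−3.02, SE 0.21), and 10.1% of its exon length overlaps Apobr. In all of these genes the highest VWF-treated culture was below the lowest LPS-treated culture. Il19, of the IL-10 family, and Edn1, which encodes the vasoconstrictor endothelin-1, differed by −3.62 (SE 0.20) and −3.94 (SE 0.24).

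The 1 cytokine gene called higher with VWF was Il12b, which encodes the p40 subunit of IL-12 and IL-23 and is named here after its values were seen. It reached 86.4, 81.2, 90.4, 118 and 171 CPM with VWF and 22.8, 43.6, 50.1 and 40.1 CPM with LPS, with controls at 0.0129 to 0.0829 CPM. No VWF-treated culture fell into the LPS range, and the log2 fold change was 1.53 (SE 0.27, adjusted p = 0.000851).

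CC chemokines, which mainly recruit monocytes and lymphocytes, were lower with VWF in 9 of 12 tested members and higher in 0, at a median of −1.63. Ccl2 reached 480.4, 571, 532, 589.8 and 368 CPM with VWF and 2823, 2002, 1616 and 2157 CPM with LPS. Ccl7 reached 349.9, 553, 441, 521 and 256 CPM with VWF and 3488, 2146, 1741 and 2355 CPM with LPS. Both share the receptor CCR2, and both were separated between the groups at −2.04 (SE 0.18, adjusted p = 8.11e-06) and −2.48 (SE 0.26, adjusted p = 2.05e-05). Ccl4, a chemokine for monocytes and T cells, reached 1799, 3465, 4064, 4355 and 2347 CPM with VWF and 11363, 8139, 10453 and 10522 CPM with LPS (−1.62, SE 0.23, adjusted p = 0.000221). Ccl8 and Ccl22 differed by −2.92 (SE 0.36) and −1.91 (SE 0.21). Ccl3 and Ccl9 were lower in every VWF-treated culture too but did not reach the fold threshold, at −0.87 (SE 0.16) and −0.50 (SE 0.12).

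CXC chemokines went both ways by receptor. The CXCR3 ligands Cxcl9, Cxcl10 and Cxcl11, known as interferon-inducible T cell attractants, were called lower with VWF, and the CXCR2 ligands Cxcl1, Cxcl2 and Cxcl3, known as neutrophil attractants, were called higher, which makes 3 of 8 tested members each way with a median of −0.06. Cxcl9 reached 6.36, 9.94, 8.01, 10.5 and 8.05 CPM with VWF and 241, 297, 330.1 and 308 CPM with LPS (−5.06, SE 0.15, adjusted p = 2.9e-08). Cxcl10 reached 2164, 3773, 4101, 5194 and 2892 CPM with VWF and 12895, 13276, 16267 and 14652 CPM with LPS (−1.94, SE 0.21, adjusted p = 2.65e-05). In both, the groups were far apart. Cxcl11 differed by −3.49 (SE 0.23), and 41.7% of its exon length overlaps Gm2673. Unlike the other 2 it is annotated as a polymorphic pseudogene, so its RNA need not stand for a working chemokine in these mice, which was not tested.

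In the other direction, Cxcl3 reached 217, 209, 267, 325 and 206 CPM with VWF and 95.7, 87.8, 117 and 113 CPM with LPS (1.29, SE 0.14, adjusted p = 3.6e-05). Cxcl2 reached 1040.1, 992, 1149, 1313 and 1232 CPM with VWF and 473, 597, 504 and 569 CPM with LPS, and Cxcl1 185, 209.7, 205, 208 and 109.6 and 106, 95, 74 and 80.7 CPM. These 2 genes, named after their values were seen, differed by 1.14 (SE 0.11) and 1.08 (SE 0.19), and the call of Cxcl1 was lost without LPS replicate 3 (1.00). Cxcl16 and Cxcl14 were not called, at −0.01 (SE 0.13, adjusted p = 0.969) and −0.12 (SE 0.09, adjusted p = 0.258). Both changed sign with scaling by library size alone and Cxcl16 under 7 other alternatives as well, and 18.3% of the exon length of Cxcl16 overlaps Zmynd15.

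**Figure D3:**
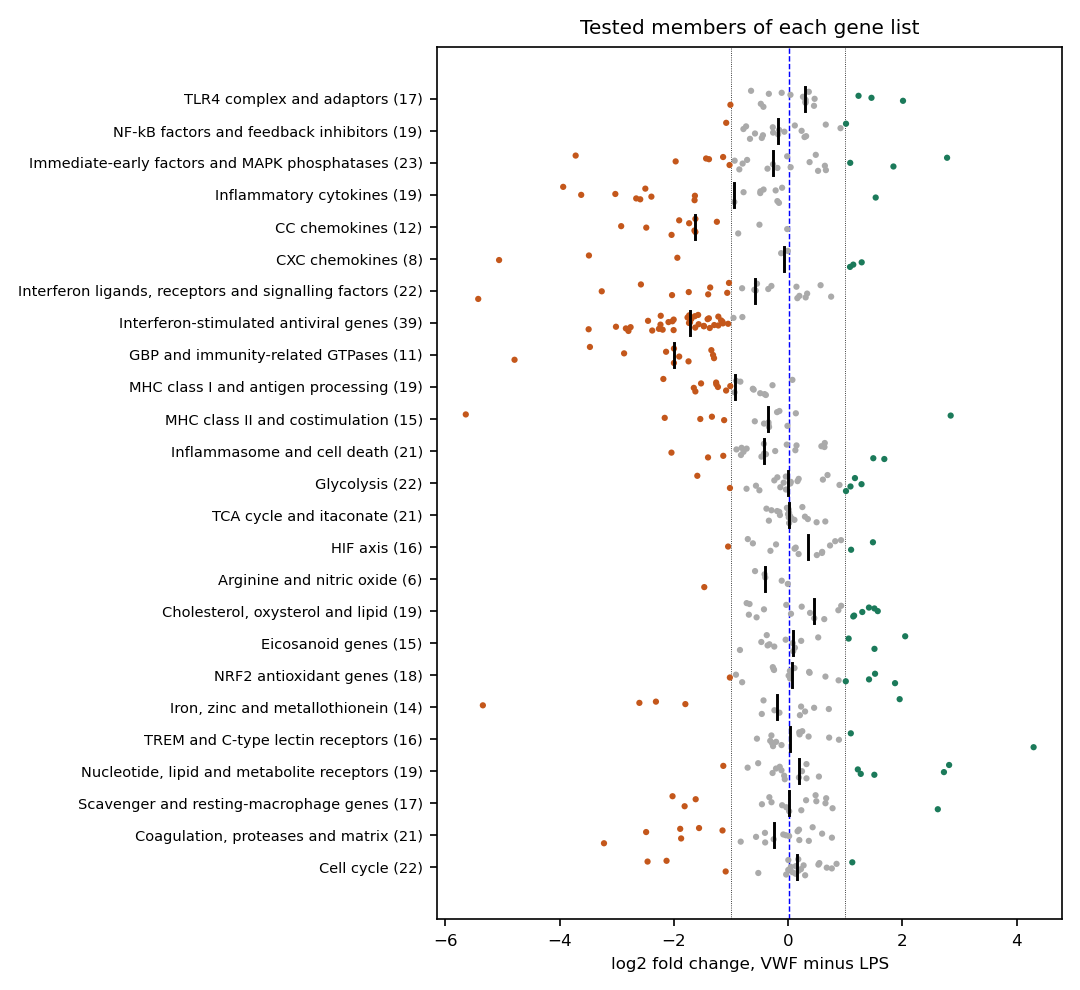
Log2 fold change of VWF minus LPS for the tested members of 25 gene lists (number tested in brackets), with members called higher in green, called lower in orange and not called in grey, the list median as a black bar, the median of all tested genes (0.02) as a dashed line and dotted lines at a 2-fold difference. The antiviral, GBP and CC chemokine lists have no member called higher, and the cholesterol and eicosanoid lists have none called lower.

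Genes of the TLR4 complex and its adaptors differed in single members, with 3 of 17 tested higher, 1 lower and a median of 0.30. Ticam2, which encodes the adaptor TRAM, stood at 23.8, 21.5, 19.7, 20.2 and 25 CPM with VWF, 6.14, 6.25, 5.94 and 4.26 CPM with LPS and 6.94, 7.87, 7.48, 11.3 and 8.28 CPM in controls. It was above every control culture with VWF and below every one with LPS (2.01, SE 0.16, adjusted p = 3.04e-06), and 14.5% of its exon length overlaps Tmed7. Irak3, an inhibitor of TLR signalling, stood at 59.1, 57.3, 52.5, 60.8 and 77.8 CPM with VWF and 20.5, 24.9, 26.2 and 20.9 CPM with LPS (1.46, SE 0.14, adjusted p = 9.79e-06). Traf3, an adaptor on the way to IRF3, differed by 1.23 (SE 0.15). Ly96, which encodes MD-2, was called lower at −1.01 (SE 0.14, adjusted p = 0.000152), a value at the threshold that lost its call under 8 alternatives. The co-receptor gene Cd14 was not called at 0.45 (SE 0.14, adjusted p = 0.0186), nor was the kinase gene Ikbke at −0.11 (SE 0.10, adjusted p = 0.372), whose sign changed with scaling by library size alone.

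Of 19 tested NF-κB factors and feedback inhibitors, 1 was called higher and 1 lower, a share of 10.5% near the 11.4% of all tested genes, and the median was −0.17. Without the fold threshold, 5 members were higher and 7 lower at an adjusted p under 0.05. Both calls were lost in some alternatives, that of Zc3h12c, an RNase of the regnase family, at 1.01 (SE 0.16) under 11 and that of Zfp36, which destabilises cytokine mRNA, at −1.08 (SE 0.09) with scaling by library size alone. Nfkbia, which encodes IκBα, reached 1218, 1497, 1482, 1413 and 1341 CPM with VWF and 1300.0, 1798, 1686 and 1692 CPM with LPS. These cultures overlapped, and the difference was −0.17 (SE 0.11, adjusted p = 0.185) with a 95% interval of −0.41 to 0.06 and the other sign with scaling by library size alone. Tnfaip3, which encodes the inhibitor A20, was below the LPS range in every VWF-treated culture without reaching the fold threshold (−0.78, SE 0.12, adjusted p = 0.000438).

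Of 23 tested immediate-early factors and MAP kinase phosphatases, 3 were higher, 6 lower and the median was −0.26. The phosphatase gene Dusp4 stood at 74.1, 50.6, 44.6, 48.7 and 122 CPM with VWF and 7.04, 12, 11.1 and 11 CPM with LPS (2.78, SE 0.33, adjusted p = 5.9e-05), with the 2 highest values in VWF replicates 1 and 5. Its relative Dusp14 went the other way, at 0.53, 0.639, 1.03, 0.797 and 0.586 CPM with VWF and 8.91, 9.41, 12.6 and 7.89 CPM with LPS (−3.72, SE 0.23, adjusted p = 7.38e-07). No VWF-treated culture overlapped an LPS-treated one in either gene. Control cultures held 27.3 to 79.5 CPM of Dusp4, so that VWF-treated cultures overlapped controls and every LPS-treated culture was below them. The zinc finger factor gene Egr2 was higher by 1.84 (SE 0.13) and the small Maf factor gene Mafk lower at −1.97 (SE 0.15). Egr2 was below every control culture with both agonists, with means of 78.1 CPM in controls, 32.9 with VWF and 9.46 with LPS. Junb and Klf6 were not called, at −0.36 (SE 0.13, adjusted p = 0.035) and −0.72 (SE 0.10, adjusted p = 0.000136).

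Trem1, which encodes a receptor that amplifies TLR signals in myeloid cells, led the genes that were higher with VWF. It lies on chromosome 17 from 48232768 to 48246924 on the plus strand (ENSMUSG00000042265), and its promoter is printed above. The cultures held 25.3, 18.1, 16.8, 17.9 and 22 CPM with VWF, 1.62, 0.873, 0.887 and 0.817 CPM with LPS and 5.73, 5.68, 5.96, 6.15 and 5.78 CPM in controls. Every VWF-treated culture was above and every LPS-treated culture below the controls, and the log2 fold change of VWF to LPS was 4.30 (SE 0.26, adjusted p = 7.66e-07).

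Ppp1r12b, a regulatory subunit of myosin phosphatase, stood at 115, 73.8, 53.7, 63.4 and 133 CPM with VWF and 4.67, 6.18, 4.08 and 4.03 CPM with LPS (4.26, SE 0.33, adjusted p = 3.24e-06). Its level varied more than 2-fold among the VWF-treated cultures, with the highest values in replicates 1 and 5. In these cultures the 10 most abundant genes took 8.42% and 8.89% of all counts, the lowest shares among the VWF-treated cultures, and the part of this in the result was not tested. The growth factor gene Pdgfb stood at 857, 817, 1001, 857 and 1044 CPM with VWF and 101, 107, 145 and 135 CPM with LPS (2.96, SE 0.13, adjusted p = 1.13e-07). Gadd45a, a stress and growth arrest gene, stood at 65.5, 68.9, 85.6, 72.6 and 58.5 CPM with VWF and 10.2, 8.22, 8.97 and 8.48 CPM with LPS (3.01, SE 0.13, adjusted p = 1.1e-07), and 19.1% of its exon length overlaps E230016M11Rik on the other strand. In all 3 genes the controls lay between the agonists.

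For Pald1, a phosphatase domain gene, and Lhfpl2, both agonists gave levels below control. Pald1 stood at 26.6, 26.9, 32.9, 34.6 and 35.1 CPM with VWF, 2.57, 2.33, 2.47 and 2.82 CPM with LPS and 42.1, 48.8, 74.8, 65.1 and 77.7 CPM in controls (3.66, SE 0.12, adjusted p = 3.64e-08). Lhfpl2 stood at 126, 112, 92.3, 70.0 and 98.9 CPM with VWF, 16.2, 15.1, 10.9 and 11.4 CPM with LPS and 348, 405, 392, 362 and 356 CPM in controls (2.95, SE 0.22, adjusted p = 2.22e-06). Every LPS-treated culture was below every VWF-treated culture, and these were below every control culture. Trib1, a pseudokinase adaptor, overlapped controls with VWF, at 43.4 to 60.6 against 49.1 to 64.5 CPM, and held 6.1 to 9.35 CPM with LPS (2.90, SE 0.17). The adhesion gene Flrt3 overlapped controls with LPS, at 1.79 to 2.16 against 0.629 to 1.89 CPM, and held 10.0 to 19.3 CPM with VWF (2.93, SE 0.22), but without VWF replicate 1 it did not reach 10 TPM and was not tested.

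Of 15 tested genes of MHC class II and costimulation, 5 were lower with VWF, 1 was higher and the median was −0.34. Cd86, a ligand of CD28, stood at 30.6, 45.3, 50.5, 51.6 and 46.2 CPM with VWF, 155, 219, 202 and 249.8 CPM with LPS and 27.4, 41.7, 47.6, 52.4 and 49.2 CPM in controls. Cd80, the other CD28 ligand, showed the same picture, with VWF-treated and control cultures overlapping and every LPS-treated culture above them, at −2.16 (SE 0.15, adjusted p = 1.87e-06) and −1.54 (SE 0.09, adjusted p = 7.38e-07). Icosl, the ligand of ICOS, was the exception. It stood at 227, 184, 146, 132 and 212 CPM with VWF, 22.7, 35.2, 26.1 and 19.7 CPM with LPS and 5.82, 5.57, 3.65, 5.55 and 4.05 CPM in controls (2.85, SE 0.24, adjusted p = 4.73e-06). Cd74 and Cd83 were not called, at −0.58 (SE 0.22, adjusted p = 0.0475) and −0.15 (SE 0.15, adjusted p = 0.42), and Cd83 changed sign with scaling by library size alone.

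Inflammasome sensors also went both ways, in a list with 2 of 21 tested members higher, 3 lower and a median of −0.42. Nlrp3 reached 675, 521, 425, 467 and 788 CPM with VWF and 138, 239.5, 189 and 175 CPM with LPS (1.69, SE 0.23, adjusted p = 0.00014). Nlrc4, which senses bacterial proteins, was higher by 1.49 (SE 0.19), with its highest value in VWF replicate 5, without which it did not reach 10 TPM and was not tested. The DNA sensor gene Aim2 stood at 47.6, 52.8, 51.4, 76.6 and 64.4 CPM with VWF and 132, 163, 179 and 164 CPM with LPS (−1.40, SE 0.14, adjusted p = 1.36e-05). Mlkl, the executor of necroptosis, was lower at −2.04 (SE 0.13). Mcl1 and Tnfrsf1b were not called, at 0.15 (SE 0.09) and 0.64 (SE 0.09).

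Glycolytic genes were split around 0, with 4 of 22 tested higher, 2 lower and a median of 0.00. Slc2a1, which encodes the glucose transporter GLUT1, stood at 131, 113, 139, 174 and 155 CPM with VWF and 62.1, 67.1, 66.2 and 96.4 CPM with LPS. All VWF-treated cultures were higher, but at 1.01 (SE 0.15, adjusted p = 0.000301) the call sat at the threshold and was lost under 12 alternatives. Hk3, a hexokinase gene, was lower at −1.02 (SE 0.11) and lost its call under 3 alternatives, and Hk2 was not called at −0.73 (SE 0.15, adjusted p = 0.00228). The lactate transporter gene Slc16a1 stood at 15.4, 17.8, 19.2, 17.3 and 14.6 CPM with VWF, 54.7, 54, 46.3 and 53.6 CPM with LPS and 34.1, 35.7, 29.6, 30.4 and 27.2 CPM in controls (−1.59, SE 0.10, adjusted p = 7.66e-07), with the controls between the agonists. Pfkfb4 and Eno2 were higher by 1.29 (SE 0.10) and 1.17 (SE 0.12), and Pfkl by 1.09 (SE 0.14), a call lost without VWF replicate 4 (0.98). Pfkfb4 was below every control culture with both agonists, with means of 31.2 CPM in controls, 22.4 with VWF and 9.48 with LPS. The abundant genes Gapdh and Pkm were not called, at 0.17 (SE 0.11) and −0.19 (SE 0.11), and Pkm changed sign with scaling by library size alone. Both share over 10% of their 100-base transcript windows with pseudogenes or other models.

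None of 21 tested genes of the TCA cycle and itaconate list was called, with a median of 0.01, and in 13 of them the 95% interval of the difference lay within 0.5 of 0, beside 34.3% of all tested genes. Acod1, which makes itaconate, reached 4048, 4115, 4174, 4932 and 5527 CPM with VWF and 2809.6, 4038, 4678 and 4344 CPM with LPS. The groups overlapped (0.25, SE 0.15, adjusted p = 0.19, 95% interval −0.09 to 0.59). Idh1, Idh2 and Mdh1 differed by −0.34 (SE 0.10), 0.11 (SE 0.11) and −0.38 (SE 0.11) and were not called.

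In the HIF axis, 2 of 16 tested members were higher, 1 lower and the median was 0.34, and scaling by library size alone gave 5 higher and 0 lower. The called share was 18.8%, beside 11.4% of all tested genes. Hif1a stood at 267, 273, 281, 287 and 286 CPM with VWF and 186, 187, 232 and 208 CPM with LPS. Every VWF-treated culture was higher, without the fold needed for a call (0.50, SE 0.08, adjusted p = 0.000359). Ddit4, an inhibitor of mTORC1, was higher by 1.49 (SE 0.28). Vegfa was higher by 1.10 (SE 0.23) and lost its call without VWF replicate 1 (0.94) or LPS replicate 3 (0.93), and Ndrg1 was lower at −1.05 (SE 0.08), which was lost with scaling by library size alone (−0.76). Vegfa was below every control culture with both agonists, with means of 155 CPM in controls, 75.2 with VWF and 36.2 with LPS. P4ha1, a subunit of prolyl 4-hydroxylase, was not called (−0.62, SE 0.10, adjusted p = 0.000608).

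Nos2, the inducible nitric oxide synthase, was the 1 of 6 tested genes of arginine and nitric oxide metabolism that was called lower, with none higher and a list median of −0.41. The called share was 16.7%, from this 1 gene, beside 11.4% of all tested genes. Nos2 reached 51.7, 47.3, 34.2, 54.2 and 59.6 CPM with VWF and 107, 169.8, 136 and 153 CPM with LPS. The groups were apart (−1.47, SE 0.17, adjusted p = 6.03e-05), and no control culture held over 5 counts. Odc1 and the arginine transporter gene Slc7a2 were not called, at −0.58 (SE 0.12) and −0.40 (SE 0.17).

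Cholesterol, oxysterol and lipid genes included 6 of 19 tested members that were higher with VWF and 0 that were lower, at a median of 0.46. Without a filter or with edgeR's own filter, 1 member was called lower. Abca1, which exports cholesterol, stood at 273, 228, 257, 227 and 353 CPM with VWF and 95.5, 87.4, 113 and 76.7 CPM with LPS. Nr1h3, which encodes the oxysterol receptor LXRα that controls it, stood at 71.1, 83.6, 79.3, 84.4 and 73.3 CPM with VWF, 28.4, 26.5, 27 and 31.5 CPM with LPS and 53.9, 65.6, 60.4, 71.4 and 55.9 CPM in controls. VWF-treated cultures were higher in every pairing, at 1.57 (SE 0.16, adjusted p = 2.14e-05) and 1.51 (SE 0.08, adjusted p = 3.74e-07), and for Nr1h3 the LPS-treated cultures lay below controls. Mylip, an LXR target, and Fasn, the fatty acid synthase, differed by 1.42 (SE 0.22) and 1.30 (SE 0.29). Mylip had means of 50.3 CPM in controls, 49.3 with VWF and 19.1 with LPS. Its VWF-treated cultures overlapped controls, and every LPS-treated culture was below them. Fasn had means of 43.7 CPM in controls, 25.7 with VWF and 10.8 with LPS, and its VWF-treated and control cultures overlapped. Apoe and Cd36 were not called, at −0.42 (SE 0.18) and −0.03 (SE 0.11), and Cd36 changed sign with scaling by library size alone and without LPS replicate 1.

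Among 15 tested eicosanoid genes, 3 were higher with VWF and 0 lower, at a median of 0.08, and all 3 belong to the prostaglandins. Ptges, the synthase of prostaglandin E2, reached 156, 162, 175, 169 and 163 CPM with VWF and 54.6, 54, 66.3 and 64.3 CPM with LPS (1.51, SE 0.08, adjusted p = 2.2e-07). Ptgir, the prostacyclin receptor gene, stood at 35.1, 27.3, 25.9, 26.8 and 38.5 CPM with VWF and 7.01, 9.14, 6.26 and 8.31 CPM with LPS (2.05, SE 0.18, adjusted p = 6.63e-06). Both groups were apart in each. Ptger2, a receptor for prostaglandin E2, was higher by 1.06 (SE 0.08). The cyclooxygenase gene Ptgs2 was lower in every VWF-treated culture but was not called (−0.84, SE 0.08, adjusted p = 1.25e-05), nor was Alox5ap (−0.36, SE 0.13), which encodes the 5-lipoxygenase activating protein.

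NRF2 is the master factor of the antioxidant response, and 4 of 18 tested genes of its list were higher, 1 lower, with a median of 0.07. Its own gene Nfe2l2 stood at 399.9, 432, 428, 449 and 469.9 CPM with VWF, 116, 118, 138 and 119.7 CPM with LPS and 256, 289, 260.4, 348 and 263 CPM in controls. The controls lay between, and the difference was 1.87 (SE 0.08, adjusted p = 1.1e-07). The cystine transporter gene Slc7a11 reached 267, 237, 291, 299 and 377 CPM with VWF and 90.6, 105, 126 and 101 CPM with LPS (1.52, SE 0.14, adjusted p = 9.46e-06), and Gclc, of glutathione synthesis, was higher by 1.42 (SE 0.17). For Gclc both agonists gave levels below every control culture, with means of 122 CPM in controls, 52.2 with VWF and 20.2 with LPS. Txn1, the thioredoxin gene, was called lower at −1.02 (SE 0.18) and lost its call under 7 alternatives. Prdx1 and Sqstm1 were not called, at −0.91 (SE 0.16) and 0.38 (SE 0.10), but Prdx1 was called lower without VWF replicate 4 (−1.0), and 17.3% of the exon length of Sqstm1 overlaps Mrnip.

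Of 14 tested genes of iron, zinc and metallothionein, 1 was higher, 4 lower and the median was −0.20. Hamp, which encodes the iron hormone hepcidin, stood at 0.0513, 0.186, 0.254, 0.0228 and 0.0764 CPM with VWF and 4.21, 5.12, 5.24 and 5.24 CPM with LPS (−5.34, SE 0.43, adjusted p = 3.66e-06), a value that rests on few counts in the VWF-treated cultures. The zinc exporter gene Slc30a1 stood at 29.8, 30.7, 30.2, 35.7 and 29.2 CPM with VWF, 174, 164, 130.2 and 169 CPM with LPS and 134, 165, 109.5, 121 and 96.9 CPM in controls (−2.31, SE 0.11, adjusted p = 1.17e-07). The zinc importer gene Slc39a14 went the opposite way, at 214, 195, 188, 191 and 273 CPM with VWF and 43.1, 61.2, 63.9 and 58.6 CPM with LPS (1.95, SE 0.15, adjusted p = 3.24e-06). All of these groups were apart. The metallothionein gene Mt2 differed by −2.60 (SE 0.37), and 73.5% of its exon length overlaps Gm45774 on the other strand. The ferritin genes Fth1 and Ftl1 were not called, at 0.21 (SE 0.15) and −0.46 (SE 0.20).

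Receptors for nucleotides, lipids and metabolites included 5 of 19 tested members that were higher with VWF and 1 that was lower, at a median of 0.19. Gpr84, a receptor for medium-chain fatty acids, reached 269, 279, 260.1, 299 and 375 CPM with VWF, 33.8, 48.5, 50.8 and 52 CPM with LPS and 7.66, 8.79, 8.61, 17.6 and 11.4 CPM in controls (2.73, SE 0.16, adjusted p = 5.2e-07), and 39.5% of its exon length overlaps Gm49482 on the other strand. The fractalkine receptor gene Cx3cr1 stood at 53.9, 37.7, 33.4, 41.8 and 45.1 CPM with VWF and 8.17, 5.07, 6.26 and 5.38 CPM with LPS (2.82, SE 0.20, adjusted p = 2.04e-06). It overlapped controls with VWF, at 33 to 54 CPM in controls, and was below them with LPS. The adenosine receptor gene Adora2b and S1pr1, a receptor for sphingosine 1-phosphate, were higher by 1.51 (SE 0.13) and 1.27 (SE 0.19). C5ar1 and C3ar1 were not called, at −0.52 (SE 0.08) and 0.32 (SE 0.09).

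Trem1 and Cd300lb, which encodes an activating receptor of myeloid cells, were the 2 of 16 tested TREM and C-type lectin genes that were higher, with 0 lower and a median of 0.04. This called share of 12.5% is near the 11.4% of all tested genes. Cd300lb differed by 1.10 (SE 0.19), a call lost without LPS replicate 1 (0.99). Clec4d and Trem2 were not called, at −0.31 (SE 0.15) and −0.26 (SE 0.11), and Trem2 changed sign with scaling by library size alone.

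Scavenger and resting-macrophage genes held 1 of 17 tested members that was higher, 3 that were lower and a median of 0.02. Marco, a scavenger receptor for bacteria and particles, reached 72.9, 75.3, 108, 163 and 112 CPM with VWF, 17, 11.8, 18.7 and 23.7 CPM with LPS and 4.74, 5.62, 7.97, 5.23 and 7.05 CPM in controls (2.62, SE 0.26, adjusted p = 1.69e-05). Mertk, a receptor for the uptake of apoptotic cells, stood at 14.5, 12, 8.18, 9.93 and 17.5 CPM with VWF and 36.1, 53, 43.3 and 49.2 CPM with LPS (−1.81, SE 0.22, adjusted p = 6.76e-05). Both treated groups of Mertk were apart, and the VWF-treated cultures were also below the controls at 50.2 to 129 CPM. The Fc receptor genes Fcgr4 and Fcgr1 were lower at −2.02 (SE 0.13) and −1.62 (SE 0.14). Csf1r, the M-CSF receptor, with 15.1% of its exon length overlapping Hmgxb3, was not called (0.65, SE 0.15, adjusted p = 0.00413), nor was Mrc1, the mannose receptor (0.02, SE 0.10, 95% interval −0.20 to 0.24), nor Lrp1, a receptor known to bind VWF (0.48, SE 0.22).

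Coagulation, protease and matrix genes held 6 of 21 tested members that were lower with VWF and 0 that were higher, at a median of −0.25, with 1 called higher under scaling by library size alone. F3, which encodes tissue factor, the trigger of coagulation, stood at 6.22, 5.94, 5.04, 6.4 and 4.25 CPM with VWF, 46, 52.2, 53.2 and 63.8 CPM with LPS and 3.3, 2.02, 1.11, 2.69 and 1.62 CPM in controls. VWF-treated cultures were above controls but far below LPS-treated ones (−3.22, SE 0.15, adjusted p = 1.13e-07). The collagenase gene Mmp13 reached 473, 558, 656, 593 and 642 CPM with VWF and 2975, 3224, 3865 and 3437 CPM with LPS (−2.48, SE 0.11, adjusted p = 1.11e-07). Adamts4, an aggrecanase, and Serpinb2, an inhibitor of plasminogen activators, were lower at −1.89 (SE 0.18) and −1.87 (SE 0.27), and 12.4% of the exon length of Serpinb2 overlaps Serpinb10. Mmp12 and Plaur were not called, at −0.40 (SE 0.12) and −0.56 (SE 0.11).

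Of 22 tested cell cycle genes, 1 was higher, 3 lower and the median was 0.16, with 3 higher under scaling by library size alone. The called share was 18.2%, beside 11.4% of all tested genes. The cyclin genes Ccnd2 and Ccne1 were lower with VWF at −2.46 (SE 0.13, adjusted p = 2.82e-07) and −2.13 (SE 0.13, adjusted p = 8.06e-07), with no overlap of the groups. Pcna was lower at −1.09 (SE 0.10), which was lost with scaling by library size alone (−0.81). Ccnd1 was called higher at 1.12 (SE 0.31, adjusted p = 0.013), yet its groups overlapped, at 60.2, 36.3, 25.6, 30.0 and 61.6 CPM with VWF and 16.3, 28.7, 15.7 and 20.9 CPM with LPS, and the call was lost under 5 alternatives, among them without VWF replicate 1 (0.94) or replicate 5 (0.95), which hold its highest values. Its exon length overlaps LTO1 by 23.4%. The proliferation gene Mki67 was not called (0.23, SE 0.20, adjusted p = 0.35).

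The control cultures place each difference between the agonists. Of the 503 genes lower with VWF, 312 had all control cultures below every VWF-treated and LPS-treated culture, so that both groups were above control and LPS further, and 5 had controls above both. Of the 353 genes higher with VWF, 44 had controls below both and 75 above both. With scaling by library size alone, 27 higher genes had controls below both and 12 lower genes had them above both. The controls lay between the agonists in 31 of the higher and 32 of the lower genes, and overlapped at least 1 of the groups in 203 and 154. Among all 7500 tested genes, 1280 had controls below both, 84 between, 675 above both and 5461 overlapping.

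**Figure D4:**
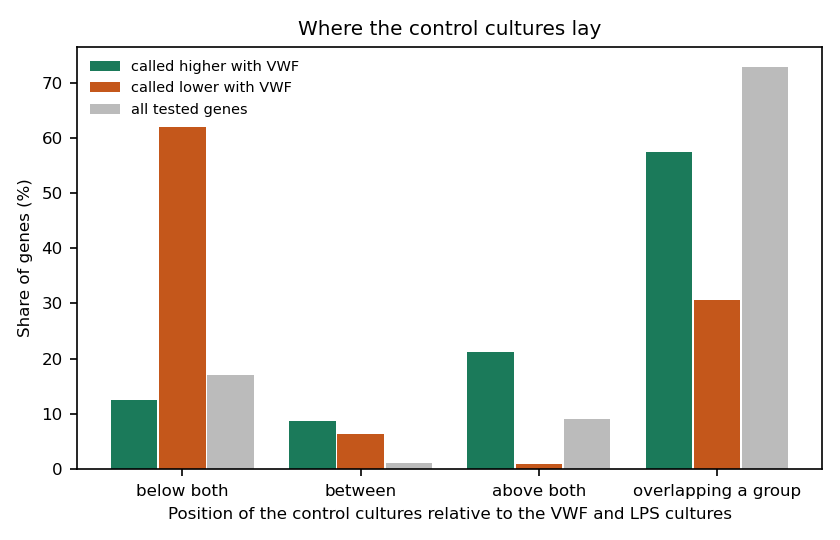
Share of genes in percent by where all 5 control cultures lay relative to the 5 VWF-treated and 4 LPS-treated cultures, for genes called higher with VWF, called lower with VWF and all tested genes. Controls lay below both agonists in 62% of the lower genes, 12.5% of the higher genes and 17.1% of tested genes, and above both in 0.994%, 21.2% and 9%.

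In 3 of the 5 leading genes with controls between the agonists, the direction was up with LPS and down with VWF. Rgcc, a regulator of the cell cycle, stood at 5.74, 12, 13.5, 9.86 and 6.02 CPM with VWF, 51.4, 60.0, 36.4, 32.8 and 28.6 CPM in controls and 128, 116, 104 and 132 CPM with LPS. Tnfsf8, the CD30 ligand, stood at 1.16, 1.2, 1.48, 2.67 and 1.44 CPM with VWF, 6.35, 7.06, 4.45, 9.68 and 5.3 CPM in controls and 16.4, 26.1, 18.9 and 30.1 CPM with LPS. No culture of any group overlapped another in these genes, and VWF differed from LPS by −3.64 (SE 0.24, adjusted p = 1.26e-06) and −3.81 (SE 0.27, adjusted p = 1.73e-06). Rab19, a small GTPase gene, differed by −3.56 (SE 0.20), with 1.45 to 3.17 CPM with VWF, 3.98 to 5.65 CPM in controls and 21.6 to 28.4 CPM with LPS. The other 2 were Trem1 and Ppp1r12b, with the opposite order. Against the shared controls, Rgcc changed by −2.23 with VWF and 1.39 with LPS, Tnfsf8 by −2.13 and 1.67, and Trem1 by 1.71 and −2.60.

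A minority of the strongly induced genes reached a like level with both agonists. The 95% interval of the difference lay within 0.5 of 0 on the log2 scale in 2571 of the 7500 genes (34.3%). Of 318 genes whose treated groups both had means at least 4-fold above control with all cultures above it, 36 met this limit, 164 were called lower with VWF, 20 higher, and 98 were neither called nor within it. All tested genes include 5461 whose controls overlapped a group, so their 34.3% is not a like baseline for these 318. The most abundant of the 36 were Tnfaip2, Tnf, Cdkn1a, Ehd1 and Nfkbia. Tnfaip2, a TNF-induced gene, reached 4239.8, 4572, 4669, 4083 and 4896 CPM with VWF and 3935, 5016, 4906 and 4323 CPM with LPS, from 215 to 312 CPM in controls. Cdkn1a, which encodes the cell cycle inhibitor p21, reached 1322, 1615, 1817, 1676 and 1675 CPM with VWF and 1367, 1700.4, 1921 and 1680.0 CPM with LPS, from 130.2 to 171 CPM. The groups overlapped in both, with intervals of −0.21 to 0.27 and −0.24 to 0.25, and the sign of these near-zero differences changed under 8 and 12 alternatives. Ehd1, an endosomal recycling gene, had an interval of −0.30 to 0.17. Against the shared controls, Tnf changed by 4.22 with VWF and 4.37 with LPS, Tnfaip2 by 4.06 and 4.02, and Ehd1 by 2.58 and 2.63.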

How the data were processed

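RNA of 28 macrophage cultures was sequenced, 14 after 3.5 h and 14 after 16 h of incubation, and the 14 cultures of the later time were not analysed here. The authors aligned reads with STAR to the mouse genome (GRCm38, mm10) and deposited counts per gene for all cultures in 1 table, with no normalization. Which annotation, strand setting and treatment of multi-mapping reads were used is not given in the sources used here, so reads of overlapping genes on opposite strands cannot be told apart. Groups and replicate numbers came from the labels.

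Genes were kept at 10 TPM or more in at least 1 of the 9 cultures, with exon lengths from GENCODE M21, and tested with edgeR (version 4.0.16, R 4.3.3) by the robust quasi-likelihood test with TMM factors and Benjamini-Hochberg adjustment over all 7500. A gene was called at an adjusted p under 0.05 and an absolute log2 fold change over 1. The filter and thresholds were those the study states, with edgeR in place of its DESeq2, which was an alternative (version 1.42.0). The exon lengths behind the study's TPM are not known here, so the genes that passed its filter may differ. The study reports more genes for this comparison than either tool called here, and the reason was not tested. The test was tried on simulated counts first. The standard error is the absolute log2 fold change over the square root of F, and 95% intervals used the t distribution of the fit. CPM used TMM factors of the 14 cultures at 3.5 h. A difference was called similar where its 95% interval lay within 0.5 of 0. No 2 cultures of a group agreed within sampling noise. The precision of single values is set by the spread of 5 and 4 cultures, and 3 counts, the limit of detection, correspond to 0.0382 to 0.0845 CPM.

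Genes are named by a rule that takes the 8 largest called differences each way among protein-coding genes with no overlap and at least 10 CPM, the genes the study names, up to 4 called and 2 uncalled members of each list, the 5 most abundant similar genes raised by both agonists, and the 5 largest differences with controls between the agonists. The comparison, the lists and the rule were chosen with earlier results of these data known. Promoter sequences came from RefSeq (GRCm38.p6), and exon overlaps and shared 100-base windows from GENCODE. Lag3 had no promoter entry, so Ifnb1 was the first lower gene, and Irgm1 was the first with an entry of its list. Il36g and Mnda had no row in the table. Alternatives were another tool, scaling, filter, threshold or set of cultures, and leaving out each culture in turn. The value of 1 marker gene is not reported here.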

Additional observations from a re-analysis of the deposited data

Results flagged for a closer look

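In 497 sets of 4 or 5 cultures of a group, 30 (6.04%) held a culture whose gap to the nearest other culture took most of the group's range by Dixon's test, which chance gives in about 1 in 20 sets. VWF replicate 5 had 7 of these, VWF replicate 4 had 6, and control replicate 4, LPS replicate 1 and LPS replicate 4 had 4 each. Control replicate 3 stood apart as the highest culture of its group in Cd80 (10.9 CPM, nearest 8.70 CPM). Control replicate 4 stood apart as the highest culture of its group in Slc2a1 (117 CPM, nearest 82.8 CPM), Hk2 (92.8 CPM, nearest 52.2 CPM), Ikbke (91.6 CPM, nearest 59.9 CPM) and Cx3cr1 (54.0 CPM, nearest 38.2 CPM). LPS replicate 1 stood apart as the highest culture of its group in Trem1 (1.62 CPM, nearest 0.887 CPM). LPS replicate 1 stood apart as the lowest culture of its group in Cmpk2 (5664 CPM, nearest 7515 CPM), Hamp (4.21 CPM, nearest 5.12 CPM) and Plaur (520 CPM, nearest 627 CPM). LPS replicate 2 stood apart as the lowest culture of its group in the share of counts in the 10 most abundant genes (9.68%, nearest 10.7%). LPS replicate 3 stood apart as the lowest culture of its group in Slc16a1 (46.3 CPM, nearest 53.6 CPM). LPS replicate 4 stood apart as the highest culture of its group in Slc2a1 (96.4 CPM, nearest 67.1 CPM), Ptgs2 (502 CPM, nearest 426 CPM) and Ccne1 (32.6 CPM, nearest 27.5 CPM). LPS replicate 4 stood apart as the lowest culture of its group in Ticam2 (4.26 CPM, nearest 5.94 CPM). VWF replicate 1 stood apart as the lowest culture of its group in C5ar1 (794 CPM, nearest 862 CPM) and Fcgr4 (51.4 CPM, nearest 75.2 CPM). VWF replicate 4 stood apart as the highest culture of its group in Lag3 (1.69 CPM, nearest 1.05 CPM), Isg20 (25.8 CPM, nearest 13.9 CPM), Pfkl (148 CPM, nearest 111 CPM), Slc30a1 (35.7 CPM, nearest 30.7 CPM) and Tnfsf8 (2.67 CPM, nearest 1.48 CPM). VWF replicate 4 stood apart as the lowest culture of its group in Trib1 (43.4 CPM, nearest 57.0 CPM). VWF replicate 5 stood apart as the highest culture of its group in Mrc1 (644 CPM, nearest 535 CPM), Parp14 (971 CPM, nearest 683 CPM), Nlrc4 (21.4 CPM, nearest 14.8 CPM), Csf1r (1977 CPM, nearest 1538 CPM) and total counts (76943833, nearest 53890327). VWF replicate 5 stood apart as the lowest culture of its group in Ifi27l2a (178 CPM, nearest 276 CPM) and Cxcl1 (110 CPM, nearest 185 CPM).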

How the results depend on the processing

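The 856 calls (353 higher and 503 lower with VWF) became 860 (342 and 518) with DESeq2, 852 (334 and 518) with median-of-ratios factors, 1091 (751 and 340) with scaling by library size alone, 961 (392 and 569) with a 10 CPM filter and 859 (364 and 495) with all 14 libraries in the fit. With more low genes tested they became 1776 (801 and 975) under edgeR's own filter and 1942 (851 and 1091) without a filter. A test against a fold of 2 left 428 (129 and 299), and no fold threshold gave 3768 (1970 and 1798). Leaving out 1 culture at a time gave 777 to 946 calls, 277 to 438 higher and 482 to 534 lower, and 2198 to 2790 similar genes. The labels do not say whether replicate numbers pair the cultures, and the test did not pair them. Deviations of same-numbered VWF-treated and LPS-treated cultures correlated at 0.05, −0.18, 0.39 and 0.50. Those of differently numbered cultures correlated at −0.66 to 0.52, and so few values cannot decide whether the numbers mark pairs. A replicate block on replicates 1 to 4 gave 774 calls (265 and 509), against 785 (277 and 508) for the same cultures without the block, a fit added after the data were seen.

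With library size alone, genes with controls below both agonists were 27 among the higher ones, and genes with controls above both 12 among the lower ones. Under this scaling the number of members called lower was 0 in the TLR4, NF-κB, HIF, NRF2 and receptor lists, 1 in glycolysis and 4 in MHC class I. The number called higher was 1 in the interferon signalling and coagulation lists, 2 in the NF-κB, iron and zinc and scavenger lists, 3 in the cell cycle list, 4 in the TREM list and 5 in the HIF list. With edgeR's own filter or none, TREM genes were 4 higher and 1 lower, cholesterol genes 1 lower, receptors 3 lower and NF-κB genes 0 higher, and without a filter scavenger genes were also 5 lower and cell cycle genes 0 higher. With the 10 CPM filter, iron and zinc genes were 2 lower, receptors 2 lower and NF-κB genes 0 higher, as these were with DESeq2 and median-of-ratios factors. With all 14 libraries, the TLR4 list had 0 lower. On replicates 1 to 4, with and without the replicate block, TLR4 and NRF2 genes were 0 lower, NF-κB and cell cycle genes 0 higher and inflammasome genes 1 higher.

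Leaving out 1 culture gave 0 to 1 lower in the TLR4 list, 0 to 1 higher in the NF-κB and cell cycle lists, 1 to 2 higher in the inflammasome, HIF and TREM lists, 2 to 4 higher and 1 to 2 lower in glycolysis and 0 to 2 lower in the NRF2 list. The cause of these changes was not tested, except that Nlrc4 did not pass the filter without VWF replicate 5, which also held for Flrt3 without VWF replicate 1 and Gm4841 without LPS replicate 1.

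Of 162 genes followed by name, 13 lost their call in some alternative, and no called gene changed sign. The 14 that changed sign were not called. With library size alone these were Tnf (0.13), Il1b (0.10), Nfkbia (0.11), Ikbke (0.18), Cd83 (0.14), Cxcl14 (0.17), Cxcl16 (0.28), Cd36 (0.26), Ehd1 (0.22), Pkm (0.10) and Trem2 (0.02). Cxcl16 was 0.00 with all 14 libraries, 0.02 with the replicate block and 0.03 without it. Mrc1 was −0.04, −0.03 and −0.03, Cdkn1a −0.05, −0.04 and −0.04 and Tnfaip2 −0.03, −0.02 and −0.02 with edgeR's filter, none and 10 CPM. On replicates 1 to 4, with and without the block, Mrc1 was −0.07, Cdkn1a −0.03 and Tnfaip2 −0.02. Cdkn1a was −0.01 with DESeq2 and median-of-ratios factors. With 1 culture left out, Cd36 ranged from −0.10 to 0.01, Cxcl16 from −0.07 to 0.04, Mrc1 from −0.07 to 0.05, Cdkn1a from −0.07 to 0.07 and Tnfaip2 from −0.03 to 0.09.

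Limited to the 250 bases before the start, the share of tested genes with a match was 3.25% for ISRE, 5.74% for GAS, 8.89% for kappaB, 4.32% for AP-1, 4.54% for CRE and 12.6% for ARE. Over all promoters it was 2.98%, 7.02%, 7.25%, 6.75%, 2.52% and 10.2% in the same order and 1.47% for the serum response element, which 0 of the higher genes then held.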
